A study of Mus musculus with 8 samples.

Results

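The peaks described here are the scattered new H3K9me3 peaks of KAP1 knockout fibroblasts: 1591 regions of chromosomes 1 to 19 that were called in KAP1 knockout (KO) cells and touch no H3K9me3 peak of wild-type (WT) cells. They are 1591 of the 3176 peaks in the KO H3K9me3 list, and of 38359 peaks in the 5 deposited lists together. They were chosen by peak position in the KO and WT H3K9me3 lists: no base lies in a WT peak, and their fixed window of 1 Mb, assigned by peak midpoint, holds fewer than 8 KO peaks in excess of its WT peaks. Position, number and score in the H3K9me3 lists are therefore given as a description, without a test, and the H4K20me3 and KAP1 lists are the measurements that the choice did not use.

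The study mapped chromatin marks in mouse embryonic fibroblasts (MEF), cells grown from embryonic connective tissue, by chromatin immunoprecipitation and sequencing. Its 8 libraries cover H3K9me3 and H4K20me3 in WT and in KAP1 KO cells, KAP1 in WT cells, and 3 inputs without antibody, which were not analysed here. Each group is 1 library, so there is no replicate error, no p-value and no test between genotypes, and the 2 genotypes cannot be told apart from the 2 cultures. How KAP1 was removed, and how many embryos or clones the cultures stand for, is not given in the sources used here. KAP1 was not profiled in the KO cells.

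H3K9me3 is a histone mark of silenced chromatin, found at repeats, retroviral elements and zinc finger gene clusters. KAP1 (TRIM28) is brought to DNA by KRAB zinc finger proteins and recruits SETDB1, an enzyme that writes H3K9me3. H4K20me3 is written by the SUV420H enzymes, which are drawn to H3K9me3 through HP1 proteins, so both marks often share heterochromatin. A peak is a stretch where reads exceed a local background, and each carries the authors' own score, which grows with peak width and sequencing depth and was used only within a list. No peak called does not mean that a mark was absent.

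On chromosomes 1 to 19 the KO H3K9me3 list held 2862 peaks, and the WT list was larger, with 14185. Of the KO peaks, 2538 (88.7%) had no base in a WT peak, which is the property the choice rests on. The other 324 lay on a WT peak. Windows at or over the limit, called crowded windows below, were 34 in number and held 947 of the new peaks. The 1591 scattered peaks were spread over 755 windows. Of those windows, 437 held 1 such peak, 160 held 2, and the fullest held 15.

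The name scattered was apt for most of them. When peaks within 10 kb were joined, 1285 peaks (80.8%) stood alone, 85 stretches held 2 and 29 stretches held 3 or more. The median distance to the next KO H3K9me3 peak of any kind was 103 kb, against 3.51 kb for new peaks in the windows at or over the limit. It was less apt for 266 peaks (16.7%), which lay in 28 windows with 8 or more of them, kept under the limit by the WT peaks in the same windows. In all, 825 peaks (51.9%) lay in windows where the KO list had fewer peaks than the WT list, 177 in windows with equal numbers and 589 where KO had more. Only 134 (8.42%) lay in windows without any WT peak.

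**Figure D1:**
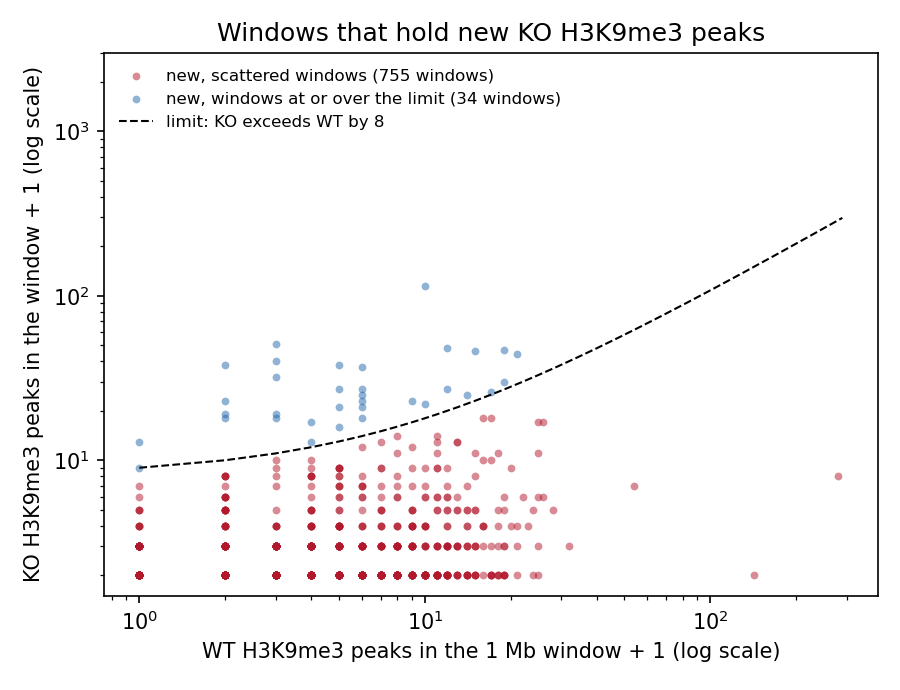
Each point is a 1 Mb window with at least 1 new KO H3K9me3 peak, placed by its number of WT peaks (x axis) and KO peaks (y axis), both plus 1 on log scales. The 755 windows with scattered peaks lie under the dashed limit of 8 more KO than WT peaks, and the 34 others lie on or over it.

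Few windows lay close to the limit. Just inside it, the window at 89 to 90 Mb of chromosome 11 held 9 KO and 2 WT peaks. In 10 windows KO exceeded WT by 6, and the 4 of them with most new peaks held 13 against 7 at 15 to 16 Mb of chromosome 5, 11 against 5 at 115 to 116 Mb of chromosome 10, 8 against 2 at 154 to 155 Mb of chromosome 4 and 9 against 3 at 44 to 45 Mb of chromosome 14. Over all 10, the median score of the new peaks in a window ran from 53.5 to 262. Just outside it, 108 to 109 Mb of chromosome 12 held 8 KO peaks and 0 WT peaks, 67 to 68 Mb of chromosome 7 held 25 and 16, and 71 to 72 Mb of chromosome 11 held 12 and 3. In 3 windows KO exceeded WT by 11, and those with most new peaks were 114 to 115 Mb of chromosome 11, with 29 and 18, and 174 to 175 Mb of chromosome 2, with 24 and 13. In these 5 outer windows the median score of the new peaks ran from 57.6 to 83.8.

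Most scattered peaks were weak and short. Scores ran from the lowest of the list, 50, to 1165, with a median of 58.1 and a 90th percentile of 94.1. Of the 1591 peaks, 580 (36.5%) scored under 55, 135 (8.49%) scored at least 100 and 24 (1.51%) at least 200. New peaks in the windows at or over the limit had a median score of 65.4, and 16.1% of them reached 100. KO peaks on WT peaks had a median of 99.8, and 162 of the 324 reached 100. By median, the scattered peaks were the lowest-scoring of the 3 classes in this list.

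**Figure D2:**
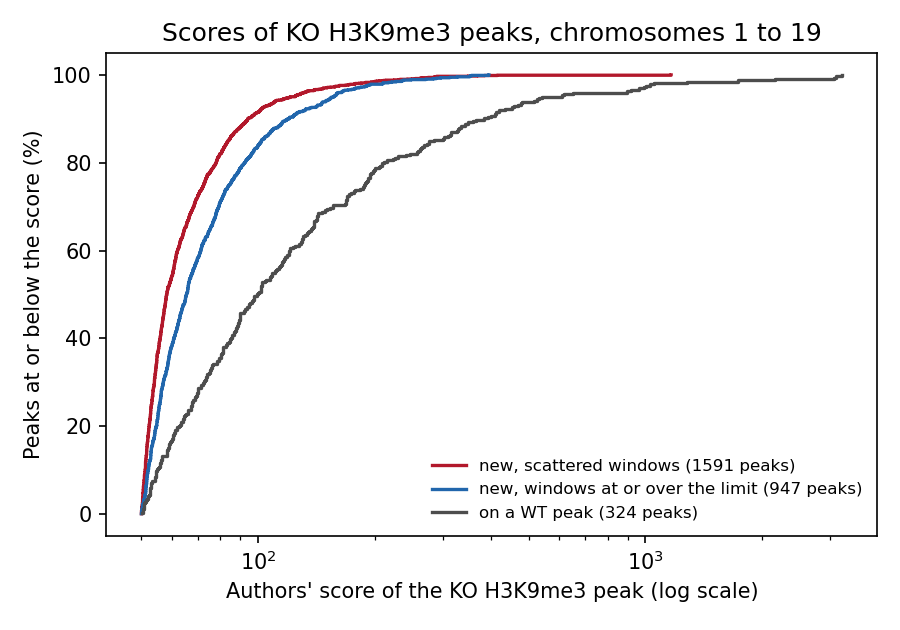
Share of KO H3K9me3 peaks (y axis, %) at or below each score (x axis, log scale) on chromosomes 1 to 19, with 1 line per class. The line of the 1591 scattered peaks climbs first, reaching its middle at 58.1, ahead of 65.4 for new peaks of the crowded windows and 99.8 for peaks on WT peaks.

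Length followed score. The median length was 405 bp, close to the upper end of the sonicated fragments, which the labels give as 200 to 400 bp. For new peaks in crowded windows it was 513 bp, and for KO peaks on WT peaks 699 bp. Among the scattered peaks, the 448 shorter than 350 bp had a median score of 53.2 and the 28 of 2000 bp or longer had one of 153. Only 87 scattered peaks (5.47%) reached 1000 bp, against 182 of 947 (19.2%) in the crowded windows.

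A short list of strong peaks stood above this mass, and several of them had KO H4K20me3 on them. The strongest lay on chromosome 4 from 118219582 to 118221548, with an H3K9me3 score of 1165 in KO. The nearest WT H3K9me3 peak was 68.3 kb away with a score of 55.2, and a KO H4K20me3 peak with a score of 158 lay on the region. No WT H4K20me3 peak lay nearer than 71.9 kb, so at this place both marks were called in the KO cells and neither in the WT cells. The second, on chromosome 18 from 5788960 to 5790550, scored 415 and showed the reverse for H4K20me3. It lay on a WT H4K20me3 peak (score 91.1), and the nearest KO H4K20me3 peak was 196 kb away.

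Of the 10 strongest scattered peaks, 6 lay on a KO H4K20me3 peak and none of those 6 on a WT one. Besides the chromosome 4 region these were on chromosome 10 from 126180562 to 126182881 (H3K9me3 score 384) and from 52249224 to 52250046 (288), on chromosome 8 from 57980212 to 57981964 (348), on chromosome 12 from 114662508 to 114663634 (286) and on chromosome 11 from 18231518 to 18232398 (275). Their KO H4K20me3 peaks scored, in the same order, 63.2, 52.0, 129, 142 and 112, so they were low for that list, whose median on chromosomes 1 to 19 was 202. The chromosome 11 region was remote from WT H3K9me3, with 475 kb to the nearest peak. The region at 52249224 of chromosome 10 was separated from a WT peak by 209 bp.

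The other 4 of the 10 differed from each other. The chromosome 18 region is described above. On chromosome 8, the peak from 71998267 to 71999264 (score 368) lay on a KAP1 peak of WT cells, 1367 bp from a WT H3K9me3 peak, in a window of 6 KO and 53 WT peaks. Also on chromosome 8, the peak from 57991162 to 57992738 (290) belonged to the same stretch as the one at 57980212. The peak on chromosome 5 from 15158340 to 15162674 (285) was 4335 bp long and had no H4K20me3 within 6 kb in either list.

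Over all 1591 scattered peaks H4K20me3 was rare in both genotypes. A KO H4K20me3 peak lay on 19 of them (1.19%, exact Clopper-Pearson 95% interval 0.720 to 1.86%), where all KO H3K9me3 peaks of these chromosomes gave 2.80%. A WT H4K20me3 peak lay on 16 (1.01%, interval 0.576 to 1.63%), where all KO H3K9me3 peaks gave 3.07%. When new was judged against the 3176 highest-scoring WT peaks alone, the shares were 2.01% and 1.94%, and with scores of at least 100 in all lists they were 3.07% and 1.75%. These intervals cover counting error over peaks alone, and peaks of 1 library are not replicates. New peaks of the crowded windows had 3 of 947 on KO H4K20me3 (0.317%, interval 0.0654 to 0.923%) and 2 on WT H4K20me3. KO peaks on WT H3K9me3 peaks had 58 of 324 on KO H4K20me3 (17.9%, interval 13.9 to 22.5%) and 70 on WT H4K20me3. All WT H3K9me3 peaks of these chromosomes had 148 of 14185 on KO H4K20me3 (1.04%) and 1260 on WT H4K20me3 (8.88%).

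The H4K20me3 calls at scattered peaks were almost never shared by the 2 genotypes. H4K20me3 was called in KO alone at 18, in WT alone at 15, in both at 1 and in neither at 1557 (97.9%). The region with both lay on chromosome 8 from 40238175 to 40238805, with an H3K9me3 score of 211 and H4K20me3 scores of 110 in KO and 50.4 in WT. The 18 with H4K20me3 in KO alone had a median H3K9me3 score of 195, and 13 of them scored at least 100. The 15 with H4K20me3 in WT alone had a median of 75.8, with 4 at 100 or more. The 1557 without H4K20me3 had a median of 57.9, and 117 (7.51%) reached 100. The scores of these groups overlapped, from 56.3 to 1165 in the first, from 54.6 to 415 in the second and from 50 to 368 in the third.

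Seen from the H4K20me3 lists, 18 KO H4K20me3 peaks lay on scattered H3K9me3 peaks, and 17 of them had no WT H4K20me3 peak on them. In the whole KO H4K20me3 list on chromosomes 1 to 19, 1384 of 8673 peaks lacked a WT counterpart, so these 17 are 1.23% of them. The 16 WT H4K20me3 peaks on scattered regions included 15 without a KO counterpart. In the whole WT H4K20me3 list 3825 of 11104 peaks (34.4%) lacked one. These 15 are 0.392% of them, and the 16 are 0.144% of the list. The KO H4K20me3 peaks on scattered regions had a median score of 73.0, close to the 79.5 of all KO H4K20me3 peaks without a WT counterpart.

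KO H4K20me3 was most frequent on the scattered peaks with the highest H3K9me3 scores. In the band from 50 to 55, 0 of 580 scattered peaks lay on KO H4K20me3 (interval 0 to 0.634%). In the bands from 55 to 60, 60 to 80 and 80 to 100 the shares were 0.709%, 0.225% and 1.33%, without a steady rise. From 100 to 200 it was 4 of 111 (3.60%, interval 0.990 to 8.97%), and at 200 or more it was 10 of 24 (41.7%, interval 22.1 to 63.4%). In that top band WT H4K20me3 lay on 2 of 24 (8.33%, interval 1.03 to 27.0%). Its share was 0.172% from 50 to 55 and 2.70% from 100 to 200, so it was also higher at high scores. Of the 20 new peaks of crowded windows with scores this high, 0 lay on KO H4K20me3 (interval 0 to 16.8%). Of the 70 KO peaks on WT peaks with such scores, 25 lay on KO H4K20me3 (35.7%, interval 24.6 to 48.1%) and 26 on WT H4K20me3 (37.1%). The differences between classes were not tested.

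**Figure D3:**
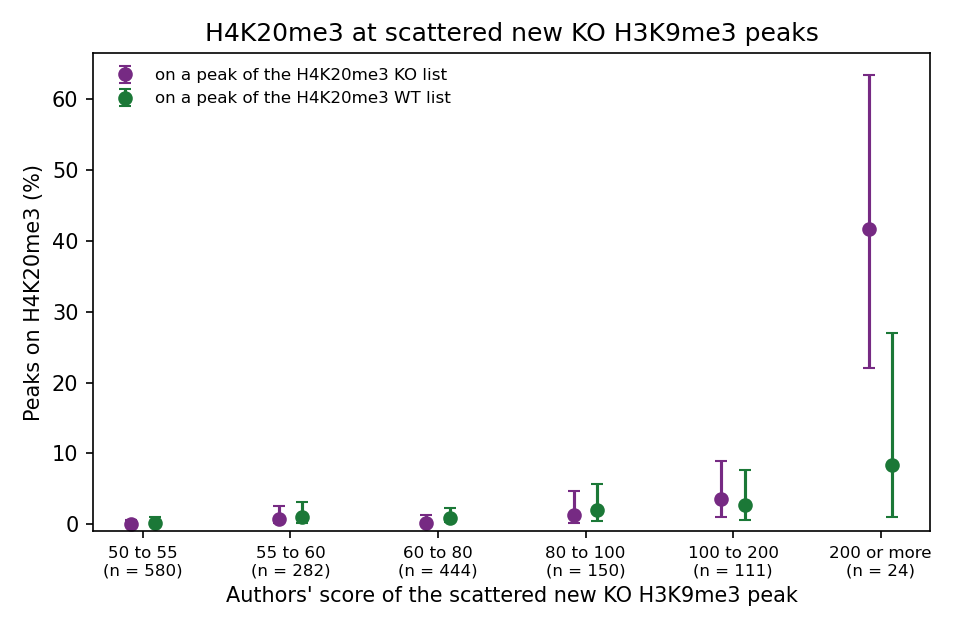
Share of scattered new KO H3K9me3 peaks (y axis, %) that lay on an H4K20me3 peak, by band of H3K9me3 score (x axis, n per band given), for the KO list in purple and the WT list in green, with bars for exact 95% intervals. Both lists stay under 4% up to a score of 200, and the KO list reaches 41.7% of 24 peaks above it.

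Longer peaks have more room to touch another peak, so the shares were also read by length. At 1000 bp or more, 6 of 87 scattered peaks (6.90%, interval 2.57 to 14.4%) lay on KO H4K20me3, and 1 of 182 new peaks of the crowded windows did (0.549%, interval 0.0139 to 3.02%). Under 500 bp the counts were 7 of 1200 and 1 of 455. The midpoint alone, which gives no weight to length, lay in a KO H4K20me3 peak for 17 scattered peaks (1.07%, interval 0.624 to 1.71%). The same held for 12 in a WT H4K20me3 peak (0.754%, interval 0.390 to 1.31%). KO H4K20me3 peaks cover 0.320% and WT ones 0.402% of the same 2380 Mb, which is each chromosome between its outermost peaks in any list, less the crowded windows.

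Away from direct contact, scattered peaks lay far from H4K20me3. Within 100 kb of a KO H4K20me3 peak were the midpoints of 282 (17.7%, interval 15.9 to 19.7%), while 35.2% of that length lies so near. For WT H4K20me3 it was 294 (18.5%), with 39.7% of the length. Within 10 kb the shares were 3.83% against 6.45% for KO and 2.58% against 7.74% for WT. The median distance was 343 kb to a KO and 324 kb to a WT H4K20me3 peak. For new peaks of the crowded windows these medians were 393 and 404 kb, so such distances were not particular to the scattered peaks. On H4K20me3 peaks, the share of midpoints was above the share of length for both genotypes. The WT interval, 0.390 to 1.31%, includes the 0.402% of length. Within 1 kb the share was 1.51% against 0.983% for KO (interval 0.969 to 2.24%). For WT it was 1.01% against 1.24% (interval 0.576 to 1.63%). Within 10 and 100 kb the share of scattered peaks was below the share of length for both genotypes. These differences were not tested.

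Distance to WT H3K9me3 peaks draws on positions that the choice used, so it is given as a description. The gap to the nearest WT peak ran from 0.012 to 4735 kb, with a median of 98.4 kb. The median depends on how many WT peaks are counted, and was 576 kb against the 3176 highest-scoring WT peaks and 225 kb with scores of at least 100 in all lists. Gaps of up to 1 kb were found for 61 peaks (3.83%), up to 10 kb for 222 (14%), up to 100 kb for 803 (50.5%) and up to 1000 kb for 1563 (98.2%). By midpoint, 222 peaks (14%, interval 12.3 to 15.8%) lay within 10 kb of a WT peak and 48 (3.02%, interval 2.23 to 3.98%) within 1 kb. The matching shares of length were 7.99% and 1.30%, and at 100 kb the shares were 50.3% of peaks and 46.6% of length. Nothing is read from these differences, because the limit on windows admits peaks more readily where WT peaks are many. New peaks of the crowded windows had nearly the same median gap, 99.2 kb.

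**Figure D4:**
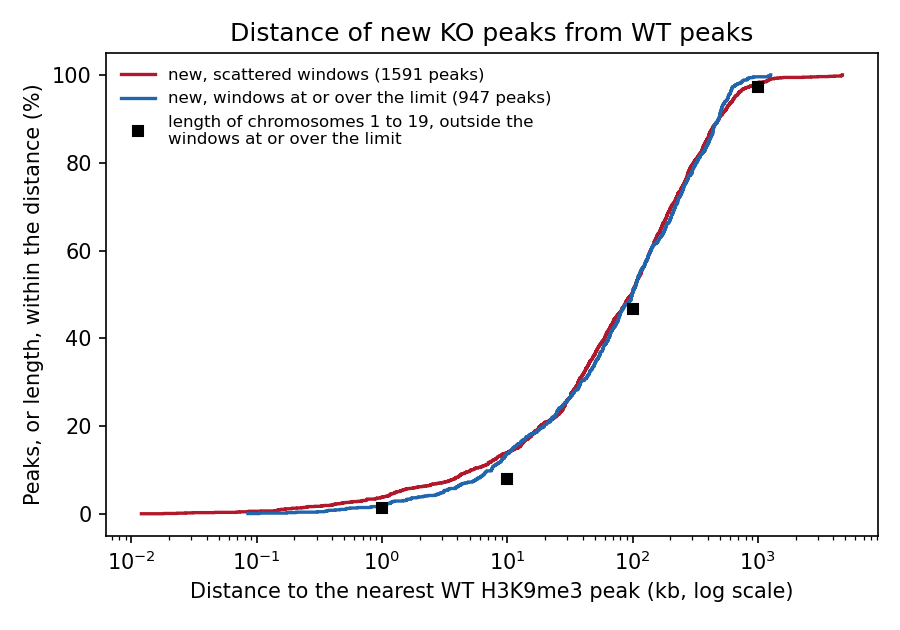
Share of new KO H3K9me3 peaks (y axis, %) within each distance of a WT H3K9me3 peak (x axis, kb, log scale), measured from edge to edge, for scattered peaks in red and peaks of the crowded windows in blue, with black squares for the share of chromosome length. Both lines pass close to 50% at 100 kb, and at 10 kb the red line stands at 14% and the square at 7.99%.

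Peaks near WT peaks were somewhat stronger. The 61 within 1 kb had a median score of 68.8 and a median length of 525 bp, and the 760 at 100 kb to 1 Mb had 56.7 and 390 bp. A score of 100 or more was reached by 9 of 61 (14.8%, interval 6.98 to 26.2%) within 1 kb, by 26 of 161 (16.1%, interval 10.8 to 22.8%) at 1 to 10 kb and by 42 of 760 (5.53%, interval 4.01 to 7.40%) at 100 kb to 1 Mb. The WT peaks nearest to them had median scores of 64.0 within 1 kb and 63.3 at 100 kb to 1 Mb, both under the 74.8 of the whole WT H3K9me3 list.

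Among scattered peaks with a score of at least 100, the nearest to a WT peak lay in the chromosome 8 stretch, at 27 bp (57980212 to 57981964) and 86 bp (57978409 to 57979323). The next were on chromosome 4 from 3091316 to 3092048, at 108 bp with a score of 125, the chromosome 10 region at 52249224 and chromosome 14 from 73348289 to 73348847, at 326 bp with a score of 112. At such gaps a new peak and a WT peak can belong to 1 enriched stretch. The 5 farthest from any WT peak lay on chromosomes 7 and 14. On chromosome 7 the peaks from 39353057 to 39353434 and from 39222612 to 39223281 scored 56.1 and 55.2, with 4735 and 4604 kb to the nearest WT peak. On chromosome 14 the peaks at 3020760, 3071992 and 3651114 scored 52.1, 50.6 and 99.9, at 4707, 4656 and 4076 kb.

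Dense runs of scattered peaks were few, and they differed in what else was called there. The longest run by number, on chromosome 3 from 3002910 to 3038002, held 11 scattered peaks (scores 57.0 to 147) among 13 KO and 3 WT H3K9me3 peaks, and no H4K20me3 peak of either genotype. The run on chromosome 8 from 57974971 to 58018480 held 10 (scores 64.0 to 348) among 15 KO and 8 WT H3K9me3 peaks. KO H3K9me3 peaks covered 20.8 kb of it and WT peaks 6.77 kb, and it held 4 KO and 0 WT H4K20me3 peaks. The run on chromosome 7 from 66927952 to 66952211 held 9 scattered peaks (scores 56.0 to 162), with 1 WT H3K9me3 peak and 1 KAP1 peak.

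By window, most scattered peaks lay at 19 to 20 Mb of chromosome 8 (15, with scores of 51.9 to 200), 146 to 147 Mb of chromosome 5 (14, 53.1 to 125) and 3 to 4 Mb of chromosome 3 (13, 57.0 to 147). None of these peaks lay on H4K20me3 or KAP1. The WT list held 16, 24 and 15 H3K9me3 peaks in the same windows. The window at 15 to 16 Mb of chromosome 5, one of those nearest the limit, was unlike them in strength, since 9 of its 11 scattered peaks scored at least 100.

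The chromosomes carried very different numbers of scattered peaks. Chromosome 8 held 205 (12.9%, interval 11.3 to 14.6%), or 1.59 per Mb, and chromosomes 17 and 15 followed with 1.28 and 1.27 per Mb. Chromosomes 13 and 16 held 16 each, or 0.137 and 0.168 per Mb, and the mean over the 19 chromosomes was 0.659 per Mb. WT H3K9me3 peaks were also dense on chromosomes 17, 8 and 15, at 11.0, 9.52 and 8.86 per Mb, but chromosome 13 had 6.53. Per 100 WT peaks, scattered peaks numbered 39.0 on chromosome 18, 21.8 on chromosome 7 and 21.3 on chromosome 14, and 2.09 on chromosome 13 and 4.18 on chromosome 16, with 11.2 over all.

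The choice did not use the H4K20me3 lists. Divided by the number in WT, the number of H4K20me3 peaks in KO was 0.781 over the 19 chromosomes and below 1 on 17 of them. It was highest on chromosomes 18, 7 and 14 (1.45, 1.04 and 0.954) and lowest on chromosomes 13 and 16 (0.549 and 0.613). These are the chromosomes with the most and the fewest scattered peaks per 100 WT peaks. Chromosomes 18, 14 and 7 also had the fewest WT H3K9me3 peaks (146, 267 and 317). Between the extremes the 2 orders differed. Chromosomes 8 and 12 both had 16.7 scattered peaks per 100 WT peaks, with quotients of 0.687 and 0.829. Copy number of the chromosomes in the 2 cultures was not measured here, and its part in these numbers was not tested. Scores varied little by chromosome, with medians from 56.1 on chromosome 11 to 62.7 on chromosome 3.

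**Figure D5:**
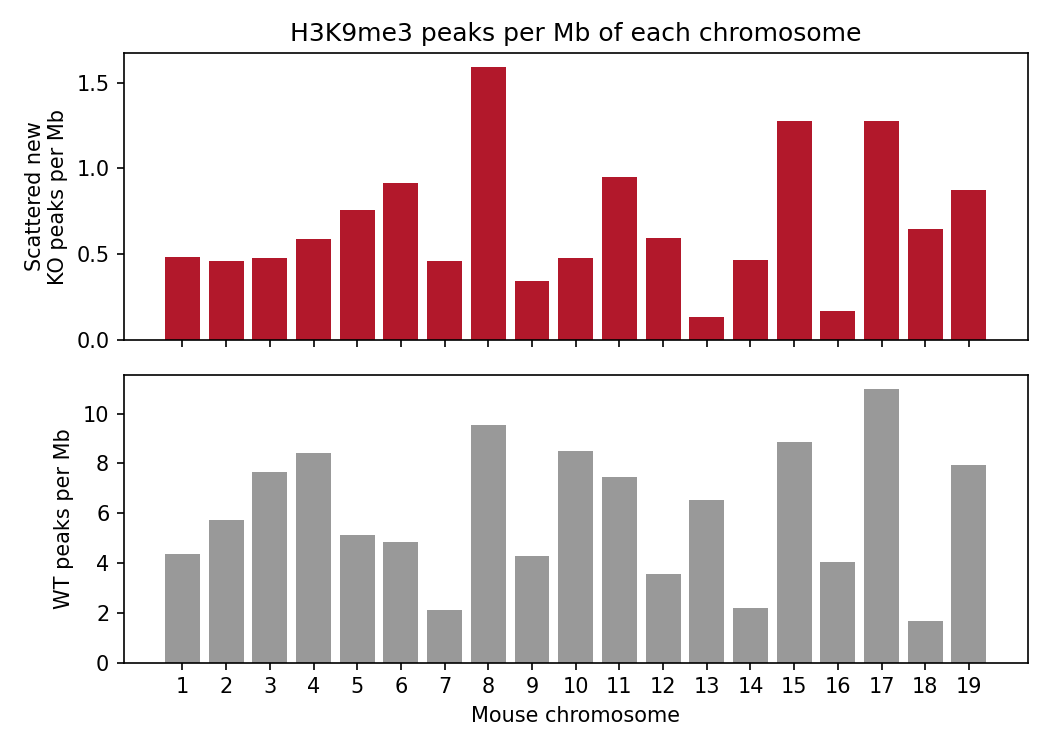
Scattered new KO H3K9me3 peaks (upper bars) and WT H3K9me3 peaks (lower bars) per Mb between the lowest and highest peak of each of the 19 chromosomes (x axis). Chromosome 8 stands highest for scattered peaks, at 1.59 per Mb, and chromosomes 13 and 16 stand lowest, at 0.137 and 0.168, although chromosome 13 carries 6.53 WT peaks per Mb.

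KAP1 peaks of WT cells were rare at scattered peaks, yet more frequent than their share of the length. They lay on 5 of 1591 (0.314%, interval 0.102 to 0.732%), where all KO H3K9me3 peaks on these chromosomes gave 0.489% and WT H3K9me3 peaks 1.30%. New peaks of the crowded windows had 1 of 947 on KAP1 (0.106%). The 5 scattered peaks touched 4 of the 361 KAP1 peaks on these chromosomes. The strongest is the chromosome 8 peak at 71998267, with a KAP1 score of 64.8. On chromosome 5 the neighbouring peaks from 16973920 to 16974350 (H3K9me3 score 76.8) and from 16974431 to 16975275 (171) share a KAP1 peak with a score of 71.2, 190 kb or more from any WT H3K9me3 peak. The others lay on chromosome 7 from 66950960 to 66952211 (87.8) and on chromosome 15 from 100883307 to 100883757 (61.7). Their KAP1 peaks scored 52.6 and 136, and the median of the whole KAP1 list was 92.2. None of the 5 lay on H4K20me3 in either genotype. Within 10 kb of a KAP1 peak were 21 scattered peaks (1.32%, interval 0.819 to 2.01%, by midpoint), while 0.296% of the length lies so near. Measured between edges the count was also 21. It was 13 of 947 (1.37%) for new peaks of the crowded windows and 26 of 324 (8.02%) for KO peaks on WT peaks. Such nearness was therefore not particular to the scattered peaks. The midpoint lay in a KAP1 peak for 3 scattered peaks (0.189%, interval 0.0389 to 0.550%), while KAP1 peaks cover 0.00826% of the length. These differences were not tested.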

How the data were processed

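Peak lists of 5 immunoprecipitation libraries were used as the authors deposited them, with chromosome, start, end, name and score per peak. The tools listed, per the submitters' processing notes, are CASAVA 1.82, Bowtie2 2.2.1 and MACS 1.4, with build mm9. Which controls and parameters the histone calls used is not given in the sources used here. The deposited score is the authors' value, with a lowest value of 50 after rounding in every list. The lists hold no read counts, so the depth behind a peak is unknown.

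Peaks were assigned to windows of 1 Mb by midpoint, and overlap meant at least 1 shared base. Distances are bases between edges. Shares have exact Clopper-Pearson 95% intervals from scipy 1.17.1. Python 3.11.15, numpy 2.4.6, pandas 2.3.3 and matplotlib 3.10.9 were used. Overlap calls of all 3176 KO peaks were the same in bedtools 2.31.1 for 4 lists, and 312 peaks made for a check of the classes were all called as made. For a count of 0 the interval starts at 0.

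Regions named are the 10 highest scores, up to 5 on each H4K20me3 list and KAP1, the 5 farthest from and nearest to WT peaks (the latter with scores of at least 100), the 3 fullest windows and 5 windows on each side of the limit. The 3 densest stretches within 10 kb, 2 of them outside these windows, and the score, length and distance bands were chosen after values were seen. The regions and the lists were chosen with earlier results of these data known. Positions count from 1. The reference tables at hand are of another build, so no gene names or sequences are given.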

Additional observations from a re-analysis of the deposited data

Results flagged for a closer look

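Outside chromosomes 1 to 19, in data that the comparisons above did not use, 207 of 314 KO H3K9me3 peaks had no base in a WT peak (65.9%, against 88.7% on chromosomes 1 to 19). They are listed because they lie outside the chromosomes described, with no test. Of these, 63 of 130 KO peaks lay on unplaced sequence, 62 of 80 on chromosome X, 42 of 49 on sequence assigned to chromosome 8 without a position and 32 of 43 on such sequence of chromosome 1. Their median score was 64.5, and 76.5 on the chromosome 8 sequence.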

How the results depend on the processing

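With 10 alternatives, 56 of 66 recomputed values stayed within the 95% interval of the reported value, or within 1.5 times for the number of peaks, and 10 moved. When all 5 lists were limited to scores from 100 up, 228 scattered peaks were found (weaker WT peaks no longer count), with a median score of 128, a median distance to WT peaks of 225 kb, and shares of 3.07% on KO H4K20me3, 1.75% on WT H4K20me3 and 0% on KAP1. With the WT list cut to its 3176 highest-scoring peaks, the size of the KO list, the median distance was 576 kb, and the shares were 2.01% on KO and 1.94% on WT H4K20me3. With peaks within 5 kb merged, the median distance was 111 kb. Neither a limit of 4 or 16, windows of 2 Mb or shifted by 0.5 Mb, a WT peak within 1 kb or 50% of the peak as the overlap, nor contact within 1 kb of the other lists moved any of the values recomputed. No paired analysis was possible because each group is 1 library. Unknown depth limits every statement that a peak was not called, since 580 of the 1591 peaks scored under 55.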

Other observations

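Scattered peaks were also found at the proximal chromosome ends, where mouse chromosomes carry their centromeres. In the first 1 Mb from the lowest peak of each chromosome lay 41 of 1591 (2.58%, interval 1.86 to 3.48%), on 10 chromosomes, while these stretches make up 0.787% of the length. The count was 13 on chromosome 3 and 6 each on chromosomes 6 and 17, and without chromosome 3 it was 28 of 1516 (1.85%). Their median score was 69.9, 10 of the 41 scored at least 100, and 1 lay on KO H4K20me3. WT H3K9me3 peaks had 203 of 14185 there (1.43%), and KO peaks on WT peaks 26 of 324 (8.02%). In the last 1 Mb lay 17 scattered peaks (1.07%, interval 0.624 to 1.71%). No test of these differences was run.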
